A study of Mus musculus with 12 samples.

Results

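The mitosis and spindle genes described here are 38 mouse genes for cyclins, kinases, checkpoint proteins, motors and microtubule proteins of cell division, chosen by name from a list of symbols. An annotated probe was found for 36 of them, 37 probes of 21738 in the deposited table, because Plk1 had 2 probes. Ccnb1 (cyclin B1) and Espl1 (separase) had no listed probe, so they have no expression values here and enter only the count of promoter motifs. Transcripts were measured in neurospheres, suspended spheres of neural stem cells and their progeny, started from embryonic mouse cortex of gestational day 12.5. All cultures were kept in serum-free medium with 20 ng/ml bFGF, 20 ng/ml EGF and 0.15 ng/ml LIF. The 12 arrays formed 4 groups of 3: prominin cultures at 108 h, control cultures at 108 h, prominin cultures at 24 h and control cultures at 24 h. Each array set Cy5-labelled neurosphere RNA against a common Cy3-labelled RNA of whole C57/Bl6 embryos of gestational day 12, with no dye swap. Prominin cultures had received an adenovirus that expresses prominin-1 (CD133), a membrane glycoprotein that serves to mark and sort stem cells. Controls are given growth medium alone in the treatment text, whereas the design text mentions GFP, so effects of the virus and of prominin-1 cannot be told apart. For the 24 h prominin samples the treatment text speaks of 108 h, and their titles were followed. Whether replicates came from separate cultures is not stated in the labels, so p-values measure only the spread between these samples.

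Cells that enter mitosis activate Cdk1 with cyclins A and B, condense their chromosomes, build a bipolar spindle with kinesin motors and Aurora and Polo kinases, and attach it to kinetochores. The spindle checkpoint holds the anaphase-promoting complex in check until the chromosomes are attached. Its activator Cdc20 then starts the destruction of securin and the cyclins. Transcripts of most of these genes peak together in G2 and M phase and are low in resting and differentiated cells. In embryonic cortex they mark dividing progenitors. Their promoters are known for the cell cycle homology element TTTGAA, or its variant TTCGAA, bound by the DREAM and B-Myb complexes, and for CCAAT boxes bound by NF-Y.

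Promoter windows from 250 bases before to 50 bases after the start site, taken from RefSeq on GRCm38.p6, were found for 31 of the 38 genes, in 33 windows. Ccna2, Pimreg, Incenp, Cdc25c, Aurkb, Kif20a and Tpx2 were not searched. Both strands were searched, and TTCGAA reads the same on either. TTTGAA or TTCGAA was found in 27 of the 33 member windows (81.8%), against 19.2% of all 32851 windows of the same length. CCAAT was found at least once in 29 member windows (87.9%, against 37.4% of all) and at least 2 times in 57.6%, against 11.7% of all. Windows with both kinds of motif made up 78.8% of the members' and 7.52% of all. The GC box GGGCGG was found in 75.8% of the members' windows and 35.7% of all. These matches are letters in a window and not measured binding. In 14 of the 33 windows the start site is the outermost annotated start of the gene, and in 19 it lies further inside, by up to 3852 bases, so some windows are those of internal starts. The windows of Cdk1, Cdca3 and Aurka, which with Pimreg had the smallest p-values with time, are printed 5′ to 3′ on the strand of the gene, with the cell cycle homology letters and the CCAAT letters of either strand in capitals. Cdk1 (chr10:69352863-69353162, minus strand) holds 2 TTTGAA and 3 CCAAT, Cdca3 (chr6:124829926-124830225, plus strand) 1 and 3, and Aurka (chr2:172370521-172370820, minus strand) 1 and 2. The start site is the outermost one for Cdk1 and lies 646 bases further inside for Cdca3 and 316 for Aurka.
Cdk1: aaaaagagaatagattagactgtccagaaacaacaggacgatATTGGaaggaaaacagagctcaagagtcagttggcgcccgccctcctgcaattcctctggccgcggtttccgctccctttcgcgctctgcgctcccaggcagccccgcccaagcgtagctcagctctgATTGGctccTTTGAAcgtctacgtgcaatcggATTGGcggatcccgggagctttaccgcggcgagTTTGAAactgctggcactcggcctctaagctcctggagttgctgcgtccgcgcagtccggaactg
Cdca3: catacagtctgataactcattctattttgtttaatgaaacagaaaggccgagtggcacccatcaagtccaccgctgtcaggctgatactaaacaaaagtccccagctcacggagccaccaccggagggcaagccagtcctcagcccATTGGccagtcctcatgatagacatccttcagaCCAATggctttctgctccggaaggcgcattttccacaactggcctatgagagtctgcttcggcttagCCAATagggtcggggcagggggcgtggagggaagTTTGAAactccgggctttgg
Aurka: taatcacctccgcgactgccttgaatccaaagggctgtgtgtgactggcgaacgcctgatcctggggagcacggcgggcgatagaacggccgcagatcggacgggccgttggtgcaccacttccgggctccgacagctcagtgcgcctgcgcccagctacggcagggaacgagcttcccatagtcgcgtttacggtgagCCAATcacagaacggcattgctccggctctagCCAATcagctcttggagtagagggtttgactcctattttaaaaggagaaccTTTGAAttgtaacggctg

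Values are log2 ratios, read as neurosphere over embryo reference. The labels do not state that direction, which is therefore likely and not settled. Were the ratio the other way round, every sign given here would turn. The basis for reading it this way is that neural stem and radial glia markers lay high (11 of 16 tested called above the median probe, 1 below, median 3.48), with the glial filament gene Gfap at 8.56 and the progenitor factor Sox2 at 3.82. In contrast, fibroblast and meninges markers lay low (5 of 5 called below, median −5.62), as did erythroid markers (4 of 4, median −4.46) and neuronal markers (4 of 7, median −2.20). The 1 tested endothelium probe was also called below (−2.74). Microglia markers did not lie low (1 of 2 called above, 0 below, median 0.70). The median of the 4532 probes with a value on each of the 12 arrays was subtracted, so 0 is the median probe and not the embryo RNA. Exact zeros and a repeated top value of 16.61 were treated as missing. That left 15944 to 16598 values per array at 108 h, against 10404 to 14465 per array at 24 h. Ratios that are small whole numbers, or their inverse, accounted per array for 2.31 to 4.41% of the values at 108 h, against 20.2 to 37.0% for 24 h. For the 37 member probes, 361 of 444 values were measured, 80 were exact zeros (35 at 108 h, 45 at 24 h) and 3 held the top value, all at 24 h. Tests covered the 9155 probes for which each group held 2 values or more, which kept 21 probes of 20 member genes and left out 16.

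Relative to the median probe, most mitosis and spindle genes had low ratios of neurosphere to embryo RNA. Of the 21 tested probes, 16 (76.2%) lay below the median probe past the limma adjusted p threshold of 0.05 and 0 lay above it. With the ratio read the other way round, the same 16 would lie above. In the same comparison 55.8% of all probes were called, 25.5% below and 30.4% above. Estimates were below 0 for 18 of 21 members (85.7%) and 44.2% of all probes. The members' median was −1.96, against 0.23 over all tested probes. Over all 37 probes, 30 had a mean below 0 and 14 were below 0 on every array that measured them. Without centring, 21 of 21 tested members lay below the embryo RNA itself and 20 were called, but the calls over all probes then split into 550 above and 5664 below, against 2783 and 2330 with centring, and 1631 and 3350 when each array was centred on all its measured probes. In bulk RNA of whole cultures, fewer dividing cells and less of a transcript per cell cannot be told apart.

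**Figure D1:**
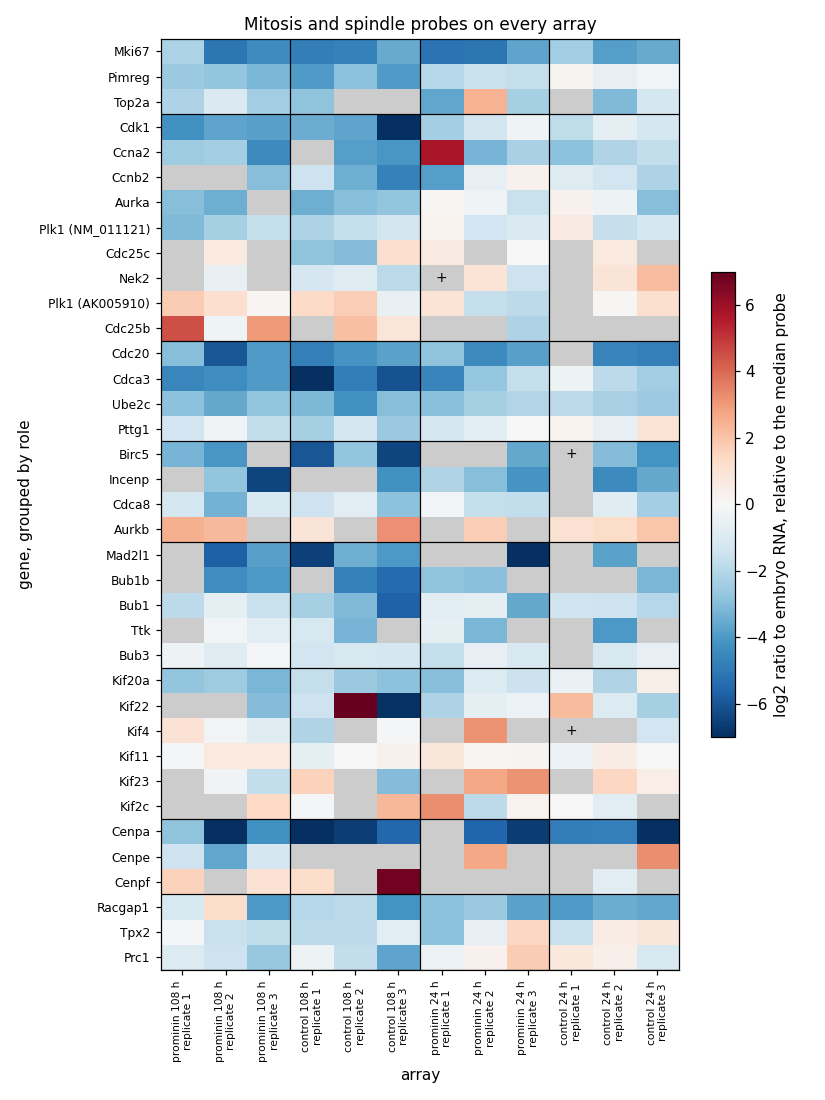
Centred log2 ratio to embryo RNA (colour) of the 37 member probes (rows, grouped by role) on the 12 arrays (columns, ordered by group). Grey cells are exact zeros and a plus marks the top value. Cenpa, Mki67 and Cdc20 are blue on every array that measured them, and Kif11 stays near white.

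Among the proliferation markers, Mki67, which encodes the Ki-67 protein that coats mitotic chromosomes, lay at −2.24, −5.04 and −4.41 on the prominin 108 h arrays, −4.82, −4.73 and −3.55 on the control 108 h arrays, −5.18, −5.12 and −3.71 on the prominin 24 h arrays and −2.45, −3.85 and −3.54 on the control 24 h arrays. Every array was low and the 4 groups overlapped. Its mean of −4.05 (SE 0.29) was below the median probe with a limma adjusted p of 7.22e-07. Top2a, the topoisomerase that untangles sister chromatids, was measured on 9 arrays and not tested. It lay at −2.15, −0.99 and −2.45 in prominin cultures at 108 h, −2.80 on 1 control array at 108 h, −3.64, 2.46 and −2.33 in prominin cultures at 24 h and −3.08 and −1.25 in controls at 24 h. One prominin 24 h array thus stood above the median probe while the other 8 values were below it.

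The gene for the mitotic regulator Pimreg, a protein of the transition from metaphase to anaphase, lay at −2.58, −2.77 and −3.21 in prominin cultures at 108 h and −3.96, −2.88 and −3.94 in controls at 108 h. At 24 h it lay at −1.99, −1.54 and −1.68 in prominin cultures, against 0.21, −0.59 and −0.17 in controls. All 6 arrays at 108 h were below all 6 at 24 h. Its mean level was −2.09 (SE 0.19, limma adjusted p 4.32e-06).

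Of the kinases, cyclins and phosphatases of mitotic entry, 4 of 5 tested probes lay below the median probe. Cdk1, the kinase that drives entry into mitosis, lay at −4.25, −3.69 and −3.83 in prominin cultures at 108 h, −3.48, −3.67 and −7.71 in controls at 108 h, −2.37, −1.27 and −0.32 in prominin cultures at 24 h and −1.80, −0.68 and −1.26 in controls at 24 h. The 108 h arrays were all below the 24 h arrays, and 1 control array at 108 h was far below the rest. The mean was −2.86 (SE 0.36, limma adjusted p 5.44e-05). Aurka, the Aurora A kinase of centrosome and spindle assembly, lay at −3.01 and −3.39 in prominin cultures at 108 h, −3.40, −2.96 and −2.76 in controls at 108 h, 0.06, −0.25 and −1.57 in prominin cultures at 24 h and 0.33, −0.38 and −2.96 in controls at 24 h. Only 1 control array at 24 h reached the range of the 108 h arrays. Ccna2 (cyclin A2) averaged −2.16 ± 2.75 (SD, n = 11 arrays) because 1 prominin 24 h array held 5.70, whereas the other values ran down to −4.45.

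The Polo kinase gene Plk1 was read by 2 probes that disagreed. Probe NM_011121 lay at −3.11, −2.32 and −1.68 in prominin cultures at 108 h, −2.17, −1.67 and −1.28 in controls at 108 h, 0.23, −1.32 and −1.01 in prominin cultures at 24 h and 0.63, −1.62 and −1.23 in controls at 24 h. Its mean was −1.38 (SE 0.26, limma adjusted p 0.000963). Probe AK005910 lay at 1.80, 1.18 and 0.15 in prominin cultures at 108 h, 1.36, 1.71 and −0.54 in controls at 108 h, 0.96, −1.67 and −1.82 in prominin cultures at 24 h and 0.09 and 1.10 in controls at 24 h. Its mean of 0.41 was not called (limma adjusted p 0.332). Which probe reads the Plk1 transcript cannot be told from the ratios, and the annotation of the array can be old.

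The other entry genes had too few values for a test. Ccnb2, the second B-type cyclin, averaged −2.10 ± 1.60 (SD, n = 10 arrays). The centrosomal kinase gene Nek2 averaged −0.25 ± 1.41 (n = 8) and Cdc25c, a phosphatase that activates Cdk1, −0.38 ± 1.78 (n = 7). The related phosphatase gene Cdc25b averaged 1.34 ± 2.40 (n = 6), with 5 of its 6 exact zeros at 24 h. Cyclin B2 thus lay mostly low, and the other 3 spread to both sides of the median probe.

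All 4 tested genes grouped here under anaphase and mitotic exit (Cdc20, Cdca3, Ube2c and Pttg1) were called below the median probe. Cdc20, the activator of the anaphase-promoting complex, lay at −2.99, −5.97 and −3.95 in prominin cultures at 108 h, −4.76, −4.11 and −3.75 in controls at 108 h, −2.79, −4.45 and −3.80 in prominin cultures at 24 h and −4.62 and −4.78 in controls at 24 h. No array came near the median probe, and the times overlapped (mean −4.22, SE 0.30, limma adjusted p 1.46e-06). Cdca3, a protein that the same complex destroys in G1, lay at −4.58, −4.36 and −3.97 in prominin cultures at 108 h, −7.28, −4.84 and −6.10 in controls at 108 h, −4.64, −2.72 and −1.67 in prominin cultures at 24 h and −0.36, −1.81 and −2.46 in controls at 24 h. The control groups did not overlap between times, while 1 prominin array at 24 h was as low as those at 108 h. Ube2c, the ubiquitin-conjugating enzyme of the complex, varied little, at −2.79 ± 0.68 (SD, n = 12). Pttg1, the securin that restrains separase, was closest to the median probe of this set, at −0.90 ± 1.04 (n = 12, limma adjusted p 0.00770).

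Pttg1 lay at −1.35, −0.26 and −1.71 in prominin cultures at 108 h, −2.30, −1.22 and −2.59 in controls at 108 h, −1.20, −0.75 and −0.03 in prominin cultures at 24 h and 0.24, −0.57 and 0.98 in controls at 24 h. Controls did not overlap between the times, and prominin cultures did.

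The centromere genes held both the lowest and the highest probe mean of the set, those of Cenpa and Cenpf. Cenpa, the histone H3 variant of centromeres, was the lowest tested member, with −2.82, −7.15 and −4.21 in prominin cultures at 108 h, −8.24, −6.62 and −5.51 in controls at 108 h, −5.54 and −6.64 in prominin cultures at 24 h and −4.83, −4.77 and −7.31 in controls at 24 h. Its mean of −5.81 (SE 0.44, limma adjusted p 2.31e-06) had 0.524% of all tested probes below it, and its groups overlapped. Cenpe, a kinetochore motor, and Cenpf, a kinetochore protein, had only 5 values each and ran from −3.61 to 3.28 and from −0.78 to 6.76.

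The chromosomal passenger complex corrects wrong attachments and guides cytokinesis. Birc5 (survivin) lay at −3.27 and −4.08 in prominin cultures at 108 h, −5.99, −2.75 and −6.42 in controls at 108 h, −3.59 on 1 prominin array at 24 h and −3.04 and −4.17 in controls at 24 h. Aurkb, the kinase of the complex, lay at 2.46 and 2.27 in prominin cultures at 108 h, 0.91 and 3.21 in controls at 108 h, 1.72 on 1 prominin array at 24 h and 1.04, 1.29 and 1.95 in controls at 24 h. Birc5 was low and Aurkb high on each of the 8 arrays that measured them. Values treated as missing for Birc5 were 3 exact zeros and 1 top value, the latter at 24 h. The scaffold gene Incenp averaged −3.84 ± 1.33 (SD, n = 8), and Cdca8 (borealin), the tested member of the complex, averaged −1.59 ± 0.95 (n = 11, limma adjusted p 0.00209).

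Of the spindle checkpoint, Bub1, a kinetochore kinase, averaged −2.07 ± 1.45 (SD, n = 12, limma adjusted p 0.000398). Bub3, the adaptor that brings Bub proteins to kinetochores, lay at −0.36, −0.85 and −0.13 in prominin cultures at 108 h, −1.31, −1.10 and −1.23 in controls at 108 h, −1.68, −0.57 and −1.12 in prominin cultures at 24 h and −1.15 and −0.58 in controls at 24 h. Its values stayed within a narrow band below the median probe (mean −0.91, SE 0.20, limma adjusted p 0.00358). The untested genes of the checkpoint were Mad2l1, which inhibits Cdc20 (−4.90 ± 1.48, n = 7), Bub1b, the BubR1 gene (−3.92 ± 0.97, n = 7), and the kinase gene Ttk (−1.89 ± 1.54, n = 7). All 3 lay below 0 on every array that measured them.

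**Figure D2:**
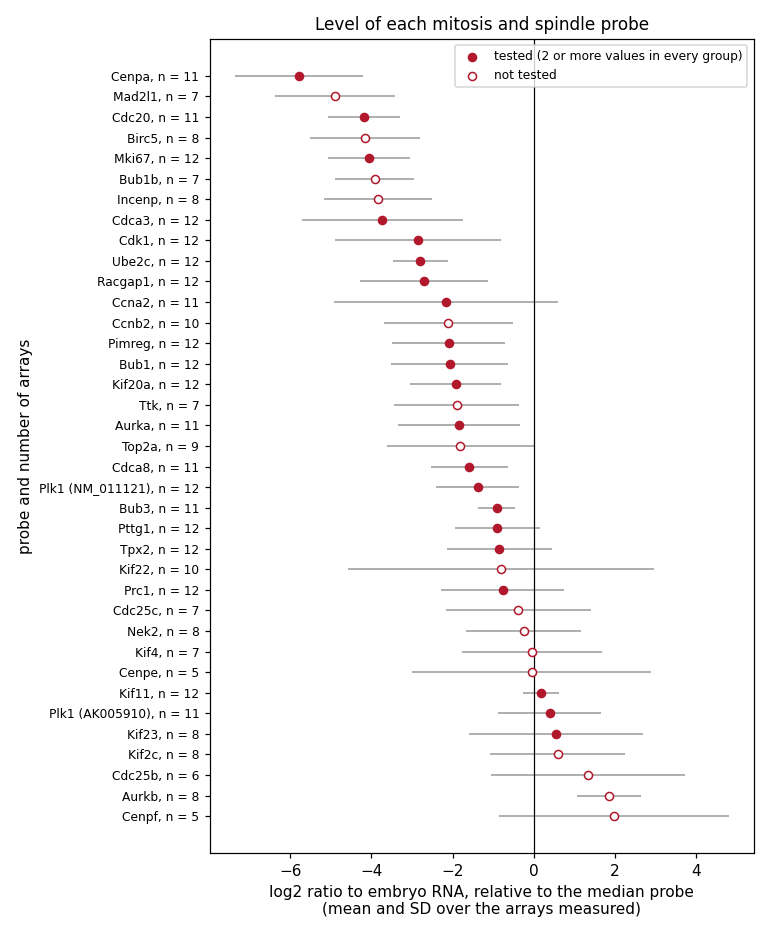
Mean centred log2 ratio to embryo RNA (horizontal axis) with the SD over the arrays measured, for the 37 member probes in ascending order; filled points were tested and open points were not. Of the tested probes, Plk1 (AK005910), Kif23 and Kif11 alone have means above the median probe at 0.

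Of the kinesin motors and of the midzone proteins, 1 of 3 tested probes each was called below the median probe and 0 above. Kif20a, a motor of the central spindle, averaged −1.92 ± 1.11 (SD, n = 12, limma adjusted p 0.000124) and was the kinesin called. Kif11, the motor that separates the spindle poles, had the narrowest spread of the members on all arrays, from −0.67 to 0.79 (mean 0.17, adjusted p 0.462). Kif23, the motor of the centralspindlin complex, lay at −0.27 and −1.73 in prominin cultures at 108 h, 1.62 and −3.03 in controls at 108 h, 2.72 and 3.16 in prominin cultures at 24 h and 1.44 and 0.47 in controls at 24 h. Kif2c, which takes microtubules apart at centromeres, was untested and held 1.42 on 1 prominin array at 108 h, −0.09 and 2.34 in controls at 108 h, 3.25, −1.82 and 0.25 in prominin cultures at 24 h and 0.04 and −0.71 in controls at 24 h. Of the chromokinesins, Kif4 averaged −0.05 ± 1.72 (n = 7) and Kif22 −0.81 ± 3.77 (n = 10), with 7.69 and −6.91 for Kif22 within the control 108 h group.

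Racgap1, the partner of Kif23 in centralspindlin, averaged −2.70 ± 1.57 (SD, n = 12, limma adjusted p 0.000167). Prc1, which bundles midzone microtubules, averaged −0.76 ± 1.51 (adjusted p 0.0702), and Tpx2, which activates Aurora A on the spindle, −0.85 ± 1.29 (adjusted p 0.0684). Neither of these last was called, and their largest values, 1.78 and 1.43, came from the same prominin 24 h array.

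With time, no member passed the threshold when 6 arrays at 108 h were compared with 6 at 24 h, but most estimates were lower at 108 h. Limma called 0 of 21 members, and 5 of all 9155 probes (0.0546%), 4 higher and 1 lower at 108 h. Estimates were lower at 108 h for 17 members (81.0%, against 51.7% of all probes), with a median difference of −0.96, against −0.03 over all probes. These 17 would be higher at 108 h with the ratio read the other way round. At an unadjusted p under 0.05, 10 of 21 members were lower and 0 higher, a share of 47.6%, against 5.32% of all probes lower. The count lower was 7 of 21 after quantile normalization and 5 of 37 with exact zeros kept, with or without top values. Lower estimates then numbered 15 of 21, 23 of 37 and, with top values kept too, 25 of 37. In the same order, the members' median was −0.76, −0.60 and −0.89, against −0.06, 0.39 and −0.38 over all probes. The shares of all probes that were lower were not counted under these settings, so 5.32% and 51.7% do not apply to them. Over the 26 alternatives the members' median ran from −1.31 to −0.60. Without moderation of the variance 1 member, Pimreg, was called, among 36 of all 9155 probes.

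Pimreg came nearest to the threshold, with −3.22 ± 0.60 at 108 h and −0.96 ± 0.90 at 24 h (SD, n = 6 each). The difference was −2.26 (SE 0.38, limma adjusted p 0.0569), and 3 of 26 alternative settings called it, with adjusted p from 0.00831 to 0.459 over all of them. Cdca3 averaged −5.19 ± 1.25 at 108 h and −2.28 ± 1.42 at 24 h (difference −2.91, SE 0.63, adjusted p 0.147). Cdk1 averaged −4.44 ± 1.63 at 108 h and −1.28 ± 0.74 at 24 h (difference −3.16, SE 0.72, adjusted p 0.181). Aurka averaged −3.10 ± 0.28 at 108 h (n = 5) and −0.80 ± 1.25 at 24 h (n = 6), a difference of −2.32 (SE 0.64, adjusted p 0.272). Of these 4, Pimreg and Cdk1 had every 108 h array below every 24 h array, which held for 0.754% of all probes.

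**Figure D3:**
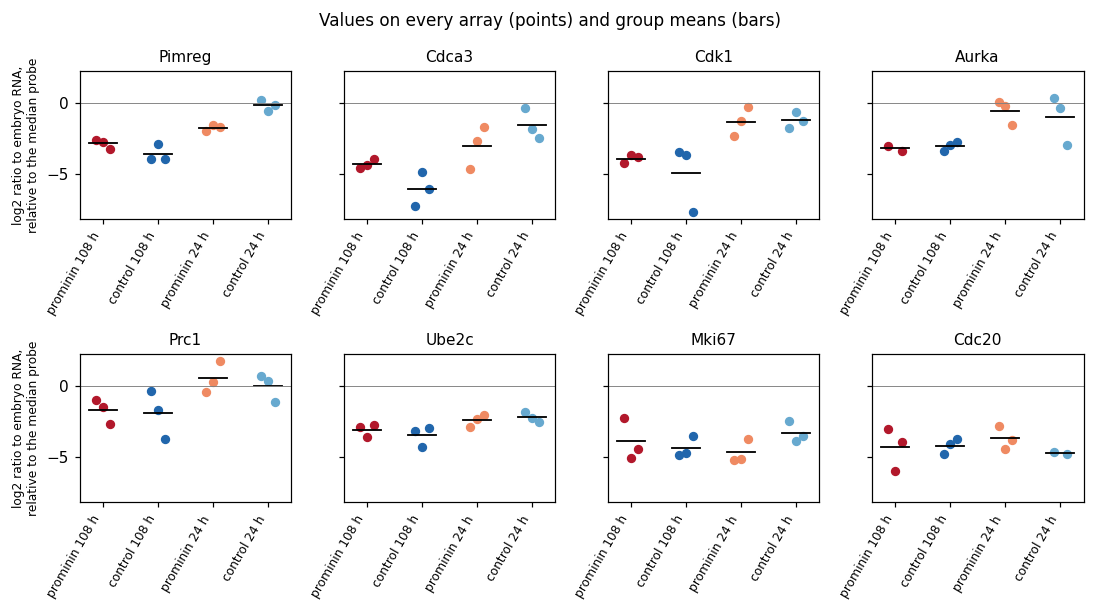
Centred log2 ratios to embryo RNA (vertical axis, points are arrays, bars are group means) for 8 members in the 4 groups. Pimreg and Cdk1 separate completely between 108 h and 24 h, while Mki67 and Cdc20 do not.

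The remaining members below an unadjusted p of 0.05 were Kif23 (−2.80), Prc1 (−2.08), Pttg1 (−1.35), Kif20a (−1.32), Plk1 by probe NM_011121 (−1.31) and Ube2c (−0.96), with limma adjusted p from 0.316 to 0.467. Estimates above 0 were those of Racgap1 (1.38, adjusted p 0.619), Plk1 by probe AK005910 (1.07, adjusted p 0.670), Bub3 (0.16, adjusted p 0.933) and Cenpa (0.11, adjusted p 0.983). The signs of Bub3 and Cenpa turn without centring (−0.076 and −0.14) and with centring on all measured probes (−0.040 and −0.092). Leaving out 1 array gave −0.36 to 0.71 for Cenpa. Mki67 (−0.16), Cdc20 (−0.06) and Kif11 (−0.06) were close to 0. For Cenpa, Cdc20 and Mki67, the 3 tested members with the lowest ratios, these averages joined opposite signs in the 2 cultures. Mki67 differed by −1.09 in controls and 0.78 in prominin cultures, and Cenpa by −1.15 and 1.37. Cdc20 differed by 0.50 in controls, with prominin means of −4.30 at 108 h and −3.68 at 24 h. Cdca3, the next lowest (mean −3.73), had an estimate for time of −2.91.

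**Figure D4:**
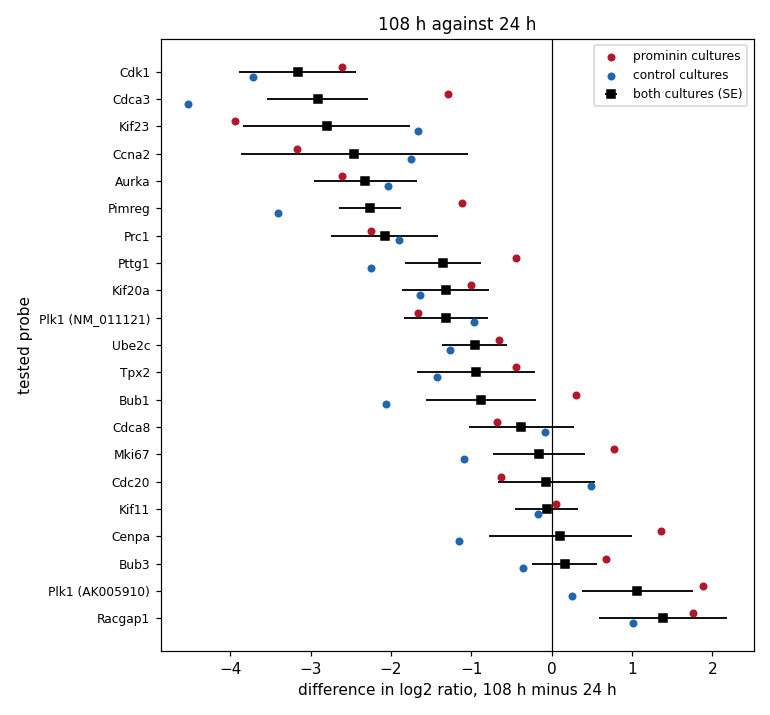
Difference in log2 ratio, 108 h minus 24 h (horizontal axis), of the 21 tested probes: black squares with SE for both cultures together, red points for prominin cultures and blue points for controls. Black squares run from −3.16 for Cdk1 to 1.38 for Racgap1, and 17 of 21 lie left of 0.

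Quality measures and some cell type markers also differed between the times. The share of whole-number ratios differed between the times without overlap, as given above; among member values there were 1 of 187 at 108 h and 15 of 174 at 24 h. The erythroid gene Hba-a1 (alpha globin) rose by 4.54 at 108 h (limma adjusted p 0.00848), and 3 of 4 tested erythroid markers had higher estimates (median 2.16). By culture, the median erythroid difference was 3.89 in prominin cultures and 0.44 in controls. In controls the erythroid medians per array overlapped (−6.00 to −5.59 at 108 h, −6.26 to −5.25 at 24 h). In prominin cultures they overlapped too (−6.20 to −3.32 at 108 h, −7.47 to −6.13 at 24 h). Over both cultures the erythroid markers' median per array ran from −6.20 to −3.32 at 108 h and from −7.47 to −5.25 at 24 h. Exact zeros made up 8 and 16 of 48 values. Of the fibroblast and meninges markers 4 of 5 had higher estimates (median 1.01, 0 called), with medians per array from −5.97 to −3.95 at 108 h and −7.45 to −3.97 at 24 h. Neural stem and radial glia markers had a median difference of −0.37 (11 of 16 lower, 0 called) and medians per array from 2.63 to 3.71 at 108 h and 3.22 to 4.99 at 24 h. Neuronal markers (median −0.23) and microglia markers (median −0.14) differed little, with 0 called. The part of these measures and markers in the members' differences was not tested. With values of whole-number ratio left out, 18 member probes could be tested and 1, Pimreg, was called (−2.29, limma adjusted p 0.0348), among 17 of all 6926 probes tested in that way.

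The members' median was also taken on each array. It ran from −2.54 to −1.82 on the prominin 108 h arrays, −3.01 to −2.06 on the control 108 h arrays, −1.99 to −1.10 on the prominin 24 h arrays and −1.34 to −0.43 on the control 24 h arrays. Of all measured probes, 7.10 to 12.4% lay below the members' median at 108 h and 10.8 to 26.3% at 24 h. The 2 times overlapped in one place, since a prominin 108 h array (−1.82) was above a prominin 24 h array (−1.99). The probes behind each median differed, as 20 to 34 member probes were measured per array. Over the 13 member probes measured on all 12 arrays, the medians ran from −3.55 to −2.24 at 108 h and −2.365 to −0.46 at 24 h. There, prominin 24 h replicate 1 (−2.365) lay below control 108 h replicate 1 (−2.30). It also lay below prominin 108 h replicates 1 (−2.24) and 2 (−2.32).

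**Figure D5:**
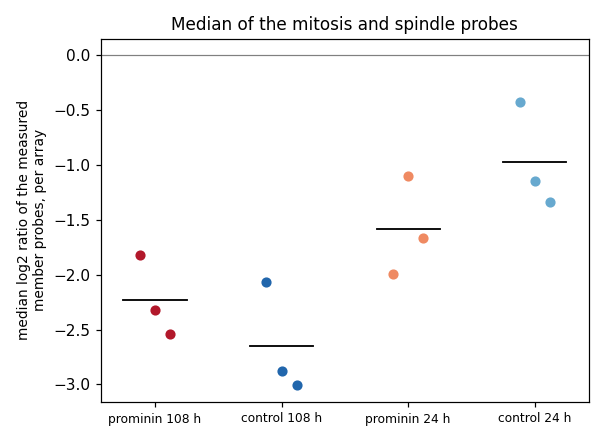
Median centred log2 ratio of the measured member probes on each array (vertical axis, points), with group means (bars). All 12 medians lie below 0, with means of −2.23 in prominin and −2.65 in control cultures at 108 h, and −1.59 in prominin and −0.97 in control cultures at 24 h.

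Taken by culture, the estimates for time were lower at 108 h for 14 of 21 members in prominin cultures (median −0.65), against 49.7% of all probes, and for 18 of 21 in controls (median −1.43), against 52.5% of all probes. In prominin cultures limma called 0 members and 2 of 9155 probes (0.0218%). In controls it called 0 of 9155 (0%). At an unadjusted p under 0.05, 5 members were lower in prominin cultures and 6 in controls, where 4.5% and 4.15% of all probes were lower. Without moderation, limma called 0 members in either culture. Over all 9155 probes it then called 7 in prominin cultures, 6 higher and 1 lower, and 0 in controls.

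In prominin cultures the smallest p-values belonged to Aurka (−2.61), Cdk1 (−2.61), Kif23 (−3.94) and Prc1 (−2.25), with limma adjusted p from 0.467 to 0.523. Estimates above 0 there included Plk1 by probe AK005910 (1.88), Racgap1 (1.76), Cenpa (1.37) and Bub3 (0.67), and none of these passed (adjusted p 0.615 to 0.812). In controls the smallest p-values belonged to Pimreg (−3.41, adjusted p 0.151), Cdca3 (−4.53, 0.328), Cdk1 (−3.71, 0.485) and Pttg1 (−2.25, 0.529). Racgap1 (1.01), Cdc20 (0.50) and Plk1 by probe AK005910 (0.25) had estimates above 0 in controls, the last with −0.25 to 0.95 when 1 array was left out. The estimate was lower at 108 h in both cultures for 13 member probes, in prominin cultures alone for 1 and in controls alone for 5, and it was higher in both for 2.

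Arrays at 108 h lay below those at 24 h without overlap for 6 members in prominin cultures (Aurka, Cdk1, Kif23, Pimreg, Plk1 by probe NM_011121 and Prc1), where 9.5% of all probes did so. In controls this held for 7 members (Bub1, Ccna2, Cdca3, Cdk1, Pimreg, Pttg1 and Ube2c), where 10.2% of all probes did so. Cdk1 and Pimreg were in both sets.

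The adenovirus cultures were next set against controls at each time, the comparison the labels give for prominin-1. Prom1 itself had an estimate of 2.58 at 108 h (limma adjusted p 0.717) and −2.23 at 24 h (adjusted p 0.998), and so passed at neither time. No member passed at 108 h or 24 h, and 0 of 9155 probes (0%) were called in either comparison, with or without moderation of the variance. At an unadjusted p under 0.05, 1 member was higher at 108 h (Bub1), as were 3.29% of all probes, and 1 lower at 24 h (Pimreg), as were 2.65%.

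At 108 h, 15 member estimates were higher and 6 lower in prominin cultures, where 49.9% of all probes were lower. The members' median was 0.47. Bub1 lay at −1.82, −0.65 and −1.54 in prominin cultures, against −2.34, −3.07 and −5.66 in controls (difference 2.35, SE 0.97, limma adjusted p 0.717). Cenpa (2.07), Cdca3 (1.77) and Bub3 (0.77) followed, with adjusted p from 0.732 to 0.810. On the lower side stood Plk1 by probe NM_011121 (−0.66), Kif20a (−0.43), Kif23 (−0.29) and Cdca8 (−0.17). Leaving out 1 array at a time gave −2.62 to 2.04 for Kif23, above 0 without control replicate 1 or prominin replicate 3, and −0.75 to 0.56 for Cdca8, above 0 without replicate 2 of either group. Bub1, Bub3 and Cdca3 were higher in prominin cultures without overlap, as were 7.85% of all probes. The sign of the Bub3 estimate also depends on centring: without it the median over all probes was −1.07, the members' median −0.60 and the Bub3 estimate −0.31.

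At 24 h, 9 member estimates were higher and 12 lower in prominin cultures, where 54% of all probes were lower. The members' median was −0.07, against −0.10 over all probes. Pimreg differed by −1.55 (SE 0.54, limma adjusted p 0.998), Cdca3 by −1.47, Mki67 by −1.39 and Kif20a by −1.07. The estimates of Ccna2 (2.31), Kif23 (1.99), Cdc20 (1.02) and Prc1 (0.58) were above 0. Without the prominin array that held 5.70, the Ccna2 estimate was −0.50, and without prominin replicate 3 that of Prc1 was −0.028. Pimreg was lower in prominin cultures without overlap, as were 9.99% of all probes, and Cdc20 and Kif23 were higher without overlap, as were 6.49%. Without centring the median over all probes was 0.58 and that of the members 0.60.

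The interaction of culture and time asks whether the prominin difference differed between the times. Limma called 0 of 9155 probes (0%), and 2 members, Cdca3 (3.23, SE 1.26, limma adjusted p 0.817) and Pimreg (2.29, SE 0.76, adjusted p 0.805), were above 0 at an unadjusted p under 0.05, against 3.4% of all probes above 0. Without moderation 0 members and 0 of all 9155 probes were called as well. Bub1 (2.37) and Pttg1 (1.81) were next above 0, and Kif23 (−2.28), Ccna2 (−1.42), Cdc20 (−1.12) and Plk1 by probe NM_011121 (−0.70) below it. Leaving out 1 array turned Ccna2 to 1.38 (without prominin 24 h replicate 1) and Kif23 to 0.052 (without control 108 h replicate 1). The members' median was 0.74, against 0.06 over all probes, and 7 of 21 estimates were below 0, as were 48.5% of all. Without centring these medians were −1.01 and −1.69.

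Over both times, 15 member estimates were higher and 6 lower in prominin cultures (median 0.15), where 52.1% of all probes were lower. Limma called 0 of 9155 probes (0%) and 0 members had an unadjusted p under 0.05, against 5.06% of all probes, with 0 called without moderation. The estimates with the smallest p-values were Bub1 (1.16), Racgap1 (1.00), Ccna2 (1.60) and Kif11 (0.40) above 0 and Kif20a (−0.75), Pimreg (−0.41), Plk1 by probe AK005910 (−0.62) and Mki67 (−0.46) below it, with limma adjusted p from 0.959 to 0.966.

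Genes of the neighbouring steps of the cell cycle gave a comparison for these levels. Of 56 tested probes of other mitotic genes, 30 lay below and 4 above the median probe (median −0.94). The lowest p-values in that list were those of the chromatin protein gene Hmgb2 (−2.70), the microtubule destabiliser gene Stmn1 (−2.29), the Cdk subunit gene Cks1b (−2.07) and the kinetochore gene Spc25 (−3.40). Of 32 tested probes for replication and S phase, 20 lay below and 0 above (median −1.56), led by the dUTPase gene Dut (−3.15), the helicase gene Mcm2 (−1.96), the histone chaperone gene Nasp (−2.64) and the ribonucleotide reductase gene Rrm1 (−2.26). The G1 cyclins and CDK inhibitors were mixed, with 6 above and 13 below of 22 (median −0.85). There Ccnd1, the cyclin D1 that carries growth factor signals into the cycle, lay at 5.07, while the CDK inhibitor gene Cdkn1c lay at −4.58, the cyclin D3 gene Ccnd3 at −3.17 and the antiproliferative gene Btg2 at −4.14.

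With time, limma called 0 probes in any of these 3 lists. Other mitotic genes were lower at 108 h in 37 of 56 estimates (median −0.38) and replication genes in 22 of 32 (median −0.84), whereas G1 cyclins and CDK inhibitors were lower in 10 of 22 (median 0.11). Spc24 (−1.73) and Cdca5 (−2.56), a cohesin regulator, led the first list by p-value, and Dut (−1.74) and the replication factor gene Mcm10 (−2.51) the second. In the third, both probes of the cyclin D2 gene Ccnd2 had lower estimates at 108 h (−2.01 and −2.54) and Cdkn1c had a higher one (2.33), with limma adjusted p from 0.146 to 0.192. The members' median of −0.96 was the lowest of the 4 lists, and the difference between the lists was not tested.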

How the data were processed

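The deposited table, the authors' processed values of 12 two-colour arrays, holds log2 ratios. Per the labels, sample RNA was labelled with Cy5 and the embryo reference with Cy3, from 1 ug of RNA, by dendrimer labelling. The scanner and any normalization by the authors are not stated in the labels. Base 2 of the log scale was inferred from the values. Samples were grouped by their titles. Exact zeros and the top value of 16.61 were set to missing, arrays were centred, and the 9155 probes with at least 2 values in each of 4 groups entered limma 3.58.1 under R 4.3.3 (8 contrasts among the group means, moderated variance, two-sided, Benjamini-Hochberg over all probes of a contrast, threshold 0.05). The script for this was tested on simulated data. A ratio within 0.01 of a whole number up to 10, or its inverse, counted as whole. The median residual SD was 1.19, and the number of arrays limits the precision.

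Genes were named from the platform's annotation: 16620 probes had 1 symbol, 113 several and 5005 none. Probes with several symbols were not used, and 324 probes without a symbol were named through RefSeq accessions. For Ccnb1 and Espl1, no listed probe thus means none with a single symbol or a matching accession. The members and lists were chosen with earlier results of these data known. Values on every array are given for the best known members, for the 3 highest and 3 lowest by mean on at least 8 arrays, and for those nearest the threshold. In each contrast up to 4 members per direction by smallest p are named, of other lists up to 4 by level and 2 by time. No set test was run. The 26 alternatives changed the scaling, missing codes, filter, unit of test, variance, replicate block and arrays used.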

Additional observations from a re-analysis of the deposited data

How the results depend on the processing

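Under the 26 alternatives the count of called members stayed at 0 in 5 of the 7 comparisons between groups. Pimreg was called with time when whole-number ratios were left out (1), when only the probes on all 12 arrays were tested (1, among 34 of 4532, and 1 in controls, among 2) and without moderation (1). For the level, the 16 calls of 21 became 10 of 13 with only the probes on all arrays (2797 of all 4532 called) and 25 of 37 with exact zeros kept (7615 of 20770). Without centring, the members' medians were 0.60 (prominin against control at 24 h), −0.60 (at 108 h), −1.01 (interaction), −0.74 (time in controls), −1.72 (time in prominin cultures), −3.55 (level) and −3.46 (mean of the arrays' medians). Centred on all probes, the last 2 were −2.55 and −2.41. With exact zeros kept, time in controls gave −0.74. With zeros and top values kept, the medians were −0.10 (interaction), −0.62 and −1.12 (time in controls and in prominin cultures), −2.46 (level) and −2.63 (arrays). Of 1396 values of named members, 43 turned their sign. Bub3 did so without centring (−0.31 for prominin at 108 h, −0.39 for time in prominin cultures, −0.076 for time), centred on all probes (−0.040) and with zeros and top values kept (−0.22). Cenpa with time was −0.14, −0.092 and −1.04 under the same 3 settings and −0.78 with exact zeros kept, −1.62 and −0.97 in prominin cultures under these last 2, −0.0091 with equal spreads of the arrays and −0.00019 with the replicate block. Cdc20 with exact zeros kept was −0.90 (24 h), 0.72 (interaction) and −1.19 (time in controls), and with top values too −0.55 and −1.05 (24 h and controls). Kif23 at 108 h was 0.30 with zeros kept and 1.70 with the replicate block. Plk1 by probe AK005910 in controls was −0.065 after quantile normalization, −0.26 with the block and −0.36 averaged over probes, which gave −0.13 for time and 0.47 for the interaction of Plk1. Leaving out 1 array gave ranges of −0.50 to 3.97 (Ccna2 at 24 h), −3.08 to 1.38 (its interaction), −0.75 to 0.56 (Cdca8 at 108 h), −0.36 to 0.71 (Cenpa with time), −2.62 to 2.04 and −4.60 to 0.052 (Kif23 at 108 h and interaction), −0.25 to 0.95 (Plk1 AK005910 in controls) and −0.028 to 1.06 (Prc1 at 24 h); Ccna2 was −0.84 and 1.74 without the first replicates at 24 h. Equal spreads and that last setting were chosen after seeing the data. The cause of these moves was not tested. Pairing of the arrays by replicate number was not settled (correlations of deviations −0.07 to 0.12 for equal numbers, −0.12 to 0.12 for others). Within a time, prominin and control arrays of equal number gave 0.11, 0.05 and 0.12 at 108 h. At 24 h they gave 0.09, 0.06 and 0.02. Those of unequal number within a time ran from −0.12 to 0.05. The replicate block gave 17 level calls among the 21 members, where 5041 of all 9155 probes were called. It called 0 members in the comparisons between groups. Over all probes it called 2 with time and 2 with time in prominin cultures.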
